A study of Mus musculus with 26 samples.

Results

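The cadherin and protocadherin genes are described here across all groups of cultured mouse cochlear supporting cells. Members are the protein-coding genes whose symbol is Cdh with a number or begins with Pcdh, without the tip link genes Cdh23 and Pcdh15 and without Cdh4. The rule gave 89 gene identifiers with 88 symbols out of 48709 identifiers. They comprise 4 classical type I cadherins, 13 type II cadherins, 4 atypical cadherins, 4 delta-1 and 5 delta-2 protocadherins, 2 other solitary protocadherins, and the 14 alpha, 22 beta and 21 gamma genes of the clustered protocadherins. Supporting cells are the non-sensory neighbours of the hair cells. Cochleae were taken at postnatal day 1 and cultured with DAPT, a gamma-secretase inhibitor that blocks Notch signalling, or with the solvent DMSO. At 24 h, cells positive for Lfng-GFP were sorted after DMSO (3 RNA libraries) or DAPT (3 libraries). At 48 h, all cells carried the TdT reporter of Lfng-CreER. Control cells came from DMSO cultures (2 RNA libraries), nonpermissive cells from DAPT cultures without Atoh1-GFP (3 libraries) and permissive cells from DAPT cultures with Atoh1-GFP (3 libraries). Open chromatin (ATAC) and H3K27ac, the acetylated histone found at regulatory DNA in use, were profiled at 48 h in 2 samples per group. The driver Lfng defines the cells at both times, and the labels do not state whether replicates are separate animals. The p-values therefore rest on the scatter among these libraries, part of which may be technical.

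Cadherins are calcium-dependent adhesion proteins whose extracellular repeats bind the same protein on the neighbouring cell. Classical cadherins hold adherens junctions together and are tied to actin through the catenins. In the sensory epithelium of the cochlea, N-cadherin (Cdh2) is known from junctions around inner hair cells, and E-cadherin (Cdh1) from those of outer hair cells and their supporting cells. Gamma-secretase, the enzyme that DAPT blocks, is known to cut both of these cadherins as well as Notch. Protocadherins adhere more weakly. The solitary delta protocadherins guide cell sorting and synapse formation, and the clustered ones, expressed in different combinations from cell to cell, give neurons a surface identity.

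The upstream sequences of Pcdh8, Pcdh10 and Cdh10 are shown because these genes were called in both comparisons of permissive cells at 48 h and have an entry in the sequence table. Pcdhgc3, called in both as well, has none there. Each sequence is the 250 bases before the start site from RefSeq, build GRCm38.p6, on the gene's strand. For Cdh10 the RefSeq gene span begins at chr15:18818869, before the start site used, so its stretch lies inside that span. The Pcdh8 stretch is chr14:79771313-79771562 on the minus strand, that of Pcdh10 is chr3:45378148-45378397 on the plus strand, and that of Cdh10 is chr15:18820079-18820328 on the plus strand. Capitals mark a match to any of 4 motifs: CAGCTG and CAGATG, which are E-boxes of the kind that Atoh1 and related factors bind, TGGGAA, the core of the site of the Notch effector Rbpj, and CACGTG, an E-box of Hes and Hey repressors. All were searched on both strands.
Pcdh8: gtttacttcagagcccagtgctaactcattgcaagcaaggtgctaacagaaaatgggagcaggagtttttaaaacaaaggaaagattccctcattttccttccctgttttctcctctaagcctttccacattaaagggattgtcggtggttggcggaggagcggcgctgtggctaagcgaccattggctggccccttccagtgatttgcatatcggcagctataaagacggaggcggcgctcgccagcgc
Pcdh10: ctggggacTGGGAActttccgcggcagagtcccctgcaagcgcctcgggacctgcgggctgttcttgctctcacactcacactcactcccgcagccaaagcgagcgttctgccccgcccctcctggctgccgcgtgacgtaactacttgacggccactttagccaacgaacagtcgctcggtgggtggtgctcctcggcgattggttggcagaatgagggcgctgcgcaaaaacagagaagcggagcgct
Cdh10: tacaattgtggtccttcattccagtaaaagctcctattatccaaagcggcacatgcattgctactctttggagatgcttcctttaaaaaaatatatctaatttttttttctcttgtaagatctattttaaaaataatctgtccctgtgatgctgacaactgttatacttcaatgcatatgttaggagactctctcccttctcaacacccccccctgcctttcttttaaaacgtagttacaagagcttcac
The GC content was 51.2% for the Pcdh8 stretch, 63.2% for that of Pcdh10 and 36.8% for that of Cdh10. Of the 9 members called in any comparison that have an entry, 1 held a match, the TGGGAA of Pcdh10, and none held an E-box of these 3 kinds in this window. Over 21263 promoter windows of this length, TGGGAA occurred in 20.9%, while CAGATG was in 12.4%. The shares for CAGCTG and for CACGTG were 12.1% and 6.63%.

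The total count of a library was 10666050 to 13158897 at 24 h but 2165338 to 4896374 at 48 h, and 78 to 82 members had a count in a library at 24 h against 45 to 74 at 48 h. Time, sort and library kit (poly(A) at 24 h, a single-cell kit at 48 h) cannot be told apart. Atoh1, the transcription factor that starts hair cell development, was at 635 to 1010 CPM (counts scaled to library size) in permissive, 30.2 to 67.2 in nonpermissive and 2.28 to 3.55 in control libraries, the order of the sort labels. The supporting cell gene Sox2 had 172 and 84.7 CPM in control, 69.2, 117 and 57 in nonpermissive, and 52.4, 45.5 and 43.7 in permissive libraries. The 11 supporting cell markers summed to 8320 and 20600 CPM in control, 6100, 19900 and 20200 in nonpermissive, and 1950, 24700 and 13000 in permissive libraries, so replicate 1 was the lowest of each group. The summed level of 10 hair cell markers was 1940 to 2310 CPM with DMSO and 4740 to 7970 with DAPT at 24 h, and 160 to 288 in control, 304 to 365 in nonpermissive and 5360 to 7140 in permissive cells at 48 h. All 10 had counts in each of these groups. The 7 markers of spiral ganglion neurons summed to 291 to 324 CPM with DMSO and 282 to 711 with DAPT, and at 48 h to 74.6 to 123, 36.9 to 80.5 and 151 to 218 CPM, with Nefl at 0 in control and Prph at 0 in both DAPT groups. In sorted bulk samples, fewer cells of a type and less RNA per cell cannot be told apart.

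By mean level per length Cdh1 ranked first in all groups but the nonpermissive cells, where Pcdhgc4 stood beside it at 109 against 108 TPM. In DMSO cells at 24 h, Cdh1 stood at 800, 978 and 936 TPM (a length-corrected share of transcripts), a mean of 905 ± 92.7 (SD, n = 3). Cdh2 followed at 99.5 ± 10 TPM and Pcdh7, a delta-1 protocadherin, at 53.1 ± 3.01. These first ranks did not overlap one another. The next 5 members, Pcdhgc3 (27.2 ± 2.54 TPM), Pcdh1 (25.9 ± 0.27), Pcdhgc4 (23.9 ± 5.98), Cdh11 (23.2 ± 3.89) and P-cadherin Cdh3 (22.2 ± 3.09), did not differ beyond their spread. Of the 89 members 55 reached a mean of 1 TPM in DMSO cells and 2, Cdh17 and Pcdha5, had no count. At 48 h, 36 members in control, 45 in nonpermissive and 32 in permissive cells reached 1 TPM. Pcdhgc4 had means of 181 TPM in control and 65 in permissive cells, where Cdh1 had 309 and 345.

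**Figure D1:**
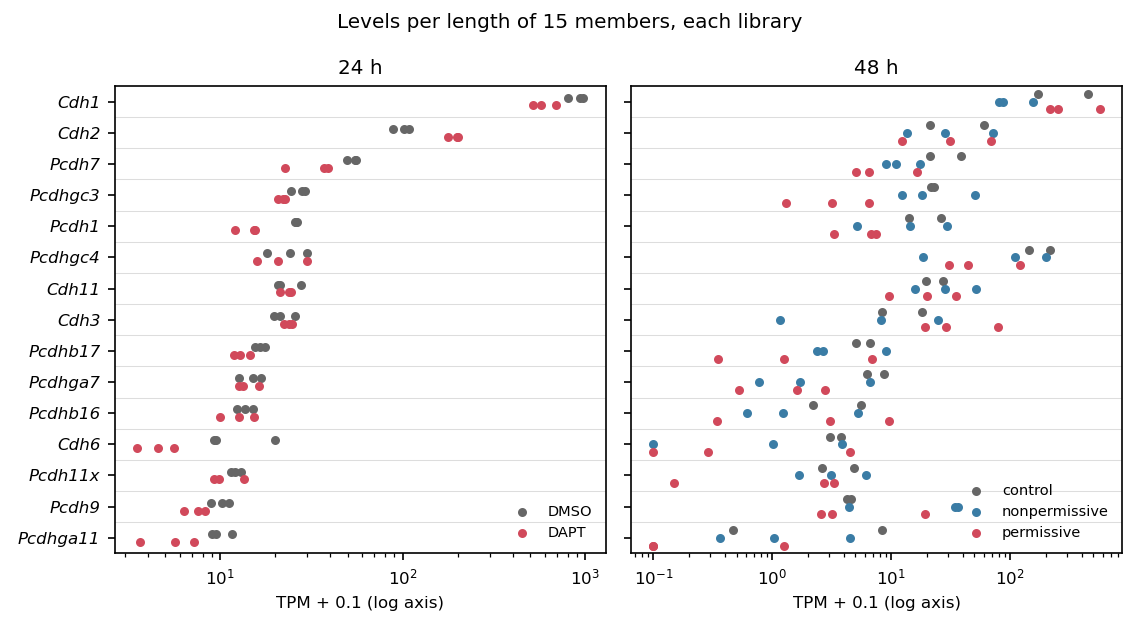
TPM plus 0.1 on a log axis for the 15 members with the highest mean TPM in DMSO cells, 1 point per library, at 24 h (left) and 48 h (right). Cdh1 lies above every other member at 24 h, with 800 to 978 TPM in DMSO libraries, and libraries of a group spread more at 48 h.

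Counts from alpha and gamma genes are uncertain one by one, because the genes of each of these clusters share constant exons. The authors' counting must divide such reads among them. The deposited expected count was not a whole number for 66.5% of the values above 0 of clustered members, against 6.23% for the other members and 19.2% over all genes. For the beta genes alone, this share was 50% to 63.6% in the libraries of 24 h and 0% to 12.5% in those of 48 h. Sums over a family are therefore given below beside single genes.

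The 24 h comparison asked how Notch block changes these cells. With DAPT, 6 members rose and 11 fell. N-cadherin and the delta-2 protocadherins Pcdh18 and Pcdh8 were among the former, and E-cadherin, the type II cadherins Cdh10 and Cdh6 and the delta protocadherins Pcdh19, Pcdh1, Pcdh17 and Pcdh7 among the latter. The 17 called were 26.2% of the 65 members that passed the filter on low counts, and 25.7% of the 15174 genes tested were called (11.5% rose and 14.2% fell), so the share of members was close to the background. The median log2 fold change was −0.10 over the members tested and 0.01 over all genes. The libraries of both groups did not overlap for 31 of the 65 members, against 42.3% of all genes. Without DAPT replicate 3 the number that rose was 11, and without DMSO replicate 3 or DAPT replicate 1 the number that fell was 6.

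Cdh2 and Cdh1 moved in opposite directions. Cdh2 was at 209, 177 and 223 CPM with DMSO and 400, 372 and 424 CPM with DAPT. Every DAPT library lay above every DMSO library, a log2 fold change of 0.97 ± 0.11 (SE; adjusted p = 0.000259, edgeR quasi-likelihood test). Cdh1 had 1820, 2160 and 2110 CPM with DMSO and 1270, 1570 and 1190 with DAPT. It fell by 0.60 ± 0.13 on the log2 scale (adjusted p = 0.00969) without overlap of the groups, and its adjusted p was 0.0534 without DAPT replicate 1. Cdh1 remained the higher of both genes, at 592 ± 86.3 TPM against 192 ± 12.9 TPM for Cdh2 with DAPT. Cdh3, the third type I cadherin tested, had 43.4 to 57.6 CPM with DMSO and 51 to 56.2 with DAPT, and its groups overlapped. Cdh15, the muscle cadherin, passed the filter as well and was not called.

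Among type II cadherins 2 of the 6 tested fell and 0 rose. Cdh10, known mainly from neurons, was at 14, 15.9 and 10.6 CPM with DMSO and 3.45, 3.1 and 6.37 with DAPT. That is a fall of 1.66 ± 0.3 on the log2 scale (adjusted p = 0.00363), with no overlap. Cdh6 fell from 12.3, 11.7 and 26.1 CPM to 7.08, 4.53 and 5.99 CPM, where DMSO replicate 3 was the highest library (log2 −1.51 ± 0.34, adjusted p = 0.0113). Cdh11, a cadherin of mesenchyme and bone, had 55.1, 60.4 and 80.8 CPM with DMSO and 59.7, 54.9 and 68.3 with DAPT. Its difference of −0.10 ± 0.15 lay within the spread (adjusted p = 0.666). The 12 mesenchyme markers summed to 551 to 578 CPM with DMSO and 492 to 611 with DAPT.

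Of the 5 delta-2 protocadherins 4 were called, 2 in each direction. Pcdh18 had 11.6, 10.9 and 17.7 CPM with DMSO and 53.3, 65.8 and 55.4 with DAPT, the smallest adjusted p of all members (log2 2.12 ± 0.19, adjusted p = 8.73e-05). Pcdh19, whose human counterpart is an epilepsy gene, had 10.2, 11.4 and 11.9 CPM with DMSO and 3.54, 3.17 and 3.18 with DAPT (log2 −1.76 ± 0.18, adjusted p = 0.000196). Both genes were thus separated by several times the spread between libraries, in opposite directions. Pcdh8, which binds N-cadherin and promotes its uptake at synapses, was at 11.2, 9.36 and 16.3 CPM with DMSO and 27.2, 32.7 and 23.8 with DAPT (log2 1.18 ± 0.22, adjusted p = 0.00409). Pcdh17, a synaptic protocadherin, fell by 0.77 ± 0.18 (adjusted p = 0.0153, and 0.0578 without DMSO replicate 3). Pcdh10, the fifth of the class, was near its detection limit at 0.545 to 1.74 CPM in all 6 libraries.

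Of the 4 delta-1 genes, 2 fell. Pcdh1, an epithelial protocadherin, was at 49.4, 49.2 and 49.6 CPM with DMSO and 30.1, 31.1 and 24.3 with DAPT, a fall of 0.79 ± 0.11 on the log2 scale (adjusted p = 0.00121). Pcdh7 went from 151 to 160 CPM down to 68.6 to 117 CPM (log2 −0.66 ± 0.17, adjusted p = 0.0226). DAPT replicate 3 was its lowest library, and its adjusted p lay between 0.0521 and 0.073 without any 1 of the DMSO replicates or DAPT replicate 1. Pcdh9 was not called (log2 −0.40 ± 0.14, adjusted p = 0.0725). Pcdh20, a solitary protocadherin outside both classes, rose from 1.23 to 1.82 CPM to 3.63 to 6.45 CPM (log2 1.57 ± 0.34, adjusted p = 0.0092).

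Clustered genes gave 6 calls among 45 tested, 2 alpha, 0 of 18 beta and 4 gamma. Of the beta genes 3 had an unadjusted p under 0.05. Pcdhac2, the C-type alpha gene that neurons express without random choice, fell from 12.3 to 13.3 CPM to 3.09 to 6.73 CPM (log2 −1.31 ± 0.26, adjusted p = 0.00664). Pcdha12 rose from 3.11 to 3.65 CPM to 5.97 to 6.56 CPM, and Pcdhga5 from 6.22 to 6.33 CPM to 10.4 to 13.5 CPM. Pcdhga11, Pcdhgb7 and Pcdhgc3 fell by 0.88, 0.59 and 0.33 on the log2 scale. Each of these 3 calls was lost in at least 3 of the 11 alternative fits, and the adjusted p then lay between 0.0509 and 0.116. Summed over the family, the gamma genes stood at 315 ± 4.13 CPM with DMSO and 285 ± 2.95 CPM with DAPT (SD, n = 3 each). The beta genes summed to 184 ± 8.24 and 164 ± 17.6 CPM, and the alpha genes to 22.7 ± 1.81 and 19.7 ± 1 CPM. So the alpha sum differed little while Pcdhac2 and Pcdha12 moved apart.

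**Figure D2:**
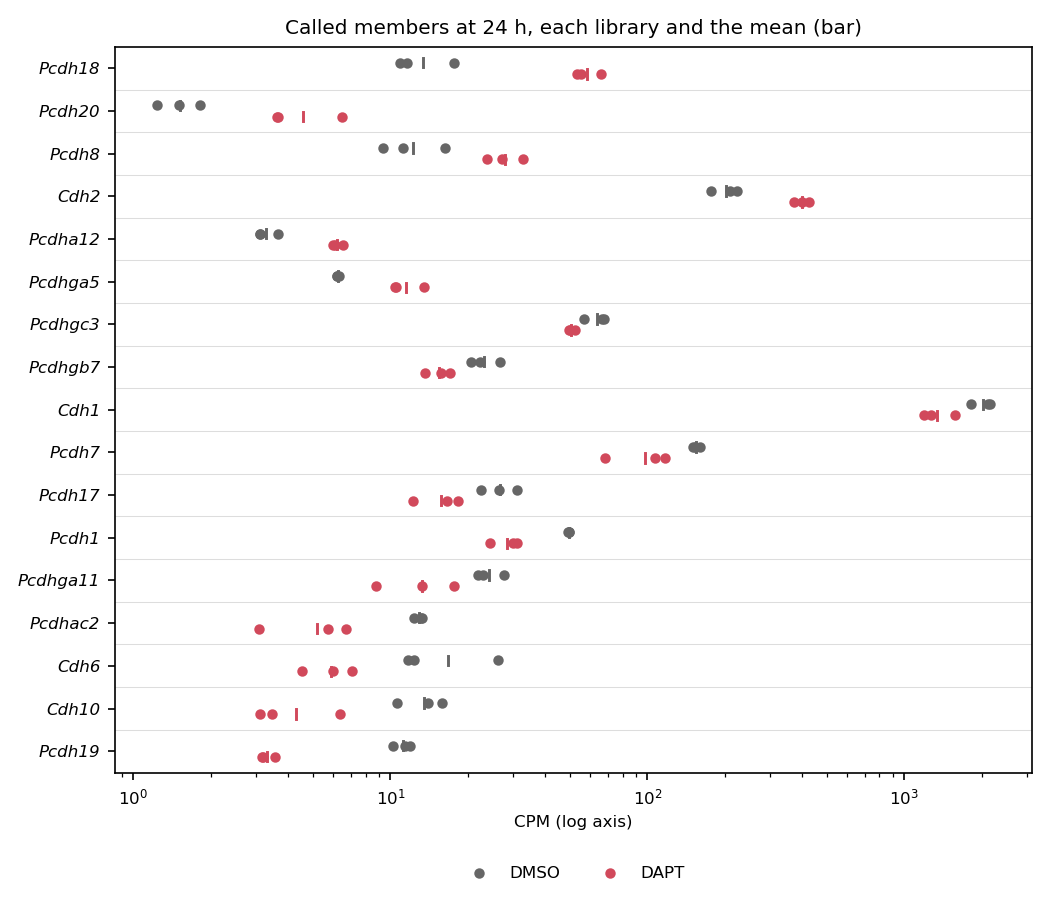
CPM on a log axis of the 17 members called at 24 h, in order of log2 fold change, 1 point per library and a bar at the mean of 3 libraries. DMSO and DAPT libraries do not overlap for any of these members, and Pcdh18 (10.9 to 17.7 CPM with DMSO, 53.3 to 65.8 with DAPT) is farthest to the higher side.

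Cell type markers that moved with these changes at 24 h were those of hair cells, given above, and those of supporting cells, whose 11 genes summed to 13400 to 14300 CPM with DMSO and 6730 to 8340 with DAPT. The 7 Schwann and satellite glia genes summed to 415 to 430 and 227 to 290 CPM, and the 7 macrophage and blood genes to 8.45 to 17.9 and 44.9 to 55.1 CPM, with Hba-a1 at 0 in both groups and Hbb-bs at 0 with DMSO. Of the macrophage and blood genes, 3, 5 and 3 had a count in the DMSO libraries and 6, 2 and 2 in the DAPT libraries, so this sum rests on few genes. Ptprc had 0, 5 and 0 counts with DMSO and 3, 0 and 0 with DAPT. The 5 melanocyte genes summed to 53 to 57.7 and 79.7 to 92.6 CPM, with Mlana at 0 in both and Dct and Tyr at 0 with DAPT. Their part in the results on members was not tested.

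At 48 h the permissive cells were compared with control and with nonpermissive cells. Pcdh8 rose and Pcdh10, Cdh10 and Pcdhgc3 fell in permissive cells against both. Against control, 5 of the 48 members that passed the filter were called (10.4%; 2 rose and 3 fell), where 13.0% of 13411 genes were called (5.72% rose and 7.28% fell). Against nonpermissive cells 7 of 48 were called (14.6%; 3 rose and 4 fell), where 13.1% of genes were called (6.78% rose and 6.35% fell). The comparisons share the permissive libraries. Groups did not overlap for 24 and 14 of the 48 members, against 40.6% and 30.1% of all genes. The medians over the members tested were −0.75 and −0.91 on the log2 scale, and 0.06 and 0 over all genes. The called shares were near the background, so the calls below are those of single genes. The medians of the members lay below those of all genes, a shift that was not tested. DESeq2 called 10 members against control and 10 against nonpermissive cells. Its share over all genes was not counted, so these numbers have no background beside them.

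Pcdh8 had the smallest adjusted p of the members against control. Its counts were 0 and 0 in control libraries, 1, 1 and 7 in nonpermissive libraries, and 319, 150 and 45 in permissive libraries. In CPM the latter were 65.8, 50.2 and 18.2, so every permissive library lay above all 5 others. Taking 3 counts per control library as the limit of detection, Pcdh8 had a permissive mean at least 63.2-fold that of control (edgeR adjusted p = 0.000668). Against nonpermissive cells it rose by 5.36 ± 0.87 on the log2 scale (adjusted p = 0.00142). The call against either group held in all 14 alternative fits, with adjusted p up to 0.00782 and 0.0112. Pcdh8 passed the filter on low counts through the permissive libraries alone, since the other libraries held 0 to 7 counts. At 24 h, DMSO cells held 9.36 to 16.3 CPM of this gene, where hair cell markers were also higher than in 48 h control cells. The hair cell and neuron markers given above were higher in permissive libraries too, and their part in the rise of Pcdh8 was not tested.

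Pcdh10, a delta-2 protocadherin that recruits actin regulators to cell contacts, went the other way. It was at 12.7 and 10.3 CPM in control, 20.1, 20 and 12.5 in nonpermissive, and 0.206, 0 and 0.809 in permissive libraries. The permissive group held 3 counts in all. The ratio of control to permissive was 40.4 (95% counting interval 13.4 to 199; adjusted p = 0.00291), and that of nonpermissive to permissive 59.3 (19.9 to 291; adjusted p = 0.0012). These intervals cover counting error alone. Cdh10 was at 61.9 and 19.4 CPM in control, 27.1, 16 and 35.5 in nonpermissive, and 2.89, 0.335 and 1.62 in permissive libraries. It fell by 4.56 ± 0.8 on the log2 scale against control (adjusted p = 0.00204) and by 3.93 ± 0.76 against nonpermissive cells (adjusted p = 0.00368). Both genes kept their calls in all 14 alternative fits of each comparison.

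Pcdhgc3, a C-type gamma gene, had 38.7 and 54.5 CPM in control, 86.3, 48.5 and 46.4 in nonpermissive, and 5.98, 3.35 and 15.4 in permissive libraries. It fell by 2.52 ± 0.62 against control (adjusted p = 0.0156, and 0.0744 without control replicate 2) and by 2.89 ± 0.59 against nonpermissive cells (adjusted p = 0.0054). The 12 mesenchyme markers summed to 655 and 2820 CPM in control, 1420 to 3420 in nonpermissive and 230, 243 and 699 in permissive libraries, with none at 0. Permissive replicate 3 (699 CPM) lay above control replicate 1 (655 CPM), and the other permissive libraries lay below every control and nonpermissive library. The Schwann and satellite glia markers summed to 522 to 973, 537 to 776 and 112 to 286 CPM, with Gfra3 at 0 in control and nonpermissive cells. Their part in these falls was not tested.

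E-cadherin separated both DAPT groups. Cdh1 was at 915 and 490 CPM in control, 303, 306 and 265 in nonpermissive, and 1090, 778 and 756 in permissive libraries. It rose by 1.59 ± 0.39 in permissive over nonpermissive cells (adjusted p = 0.0145, and 0.065 without nonpermissive replicate 3), with no overlap. Against control, the permissive libraries overlapped (log2 0.32 ± 0.42, adjusted p = 0.709). Nonpermissive libraries lay below both control libraries (log2 −1.27 ± 0.42, adjusted p = 0.426). Cdh3, a gene next to Cdh1, was at 36.8 and 23.4, at 46.9, 4 and 24.6, and at 151, 67.3 and 85.3 CPM in the same order, with adjusted p = 0.0646 between permissive and nonpermissive cells and 0.00973 with the replicate number as a block. Cdh2 ranged from 34.9 to 125 CPM over all 8 libraries, and its groups overlapped in each comparison, with adjusted p from 0.929 to 0.999. Cdh11 was at 52.4 and 55.6 CPM in control, 111, 75.4 and 61.4 in nonpermissive and 50.6, 43.5 and 31.1 in permissive libraries and was not called (adjusted p from 0.147 to 0.877).

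Nonpermissive and control cells gave no called member with edgeR, against 0.194% of all genes (0.0671% rose and 0.127% fell), and 6 members had an unadjusted p under 0.05. DESeq2 called Pcdh12, Cdh5 and Cdh13. The groups did not overlap for 12 of 48 members, against 20.5% of all genes. Pcdh12 and Cdh5 (VE-cadherin) are known from endothelial cells, and Cdh13 is a cadherin without a cytoplasmic part, found on endothelium among other tissues. Pcdh12 held 2 counts in each control library (0.374 and 0.571 CPM), and 16.2, 25.7 and 30.4 CPM in nonpermissive and 4.13, 3.01 and 14.6 in permissive libraries. Its adjusted p was 0.0527 for nonpermissive against control (log2 5.6 ± 1.04) and 0.0404 with the replicate number as a block. For permissive against control it was 0.0201 (log2 3.85 ± 1), and 0.0603 to 0.138 without control replicate 1, control replicate 2 or permissive replicate 3. Cdh5 was at 8.23 and 6.85, at 81, 27.4 and 52.2, and at 13.2, 9.37 and 32.8 CPM in control, nonpermissive and permissive libraries, with adjusted p = 0.21 for nonpermissive against control. Cdh13 was at 0 and 5.99, at 30.4, 10.3 and 59.8, and at 16.9, 25.4 and 32.8 CPM (adjusted p = 0.439). The 7 endothelial markers moved with these genes, summing to 5.98 to 40.8 CPM in control, 74.2 to 210 in nonpermissive and 31.6 to 107 in permissive libraries, with Tek at 0 in permissive cells. Their part was not tested. At 24 h these markers summed to 12.5 to 20.8 CPM and Pcdh12 was at 0 to 0.187 CPM.

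The alpha cluster stood apart in permissive cells. Its 14 genes summed to 5.05 and 3.42 CPM in control, 3.91, 1.71 and 0.32 in nonpermissive, and 53.4, 32.5 and 37.6 in permissive libraries. In control and nonpermissive libraries the counts of each library came from 1 gene, whereas 4 to 10 alpha genes had counts in permissive libraries. Pcdha4 was at 5.05 and 0 CPM, 3.91, 1.71 and 0.32 CPM, and 21.3, 25.4 and 24.7 CPM in the same order. It rose by 3.53 ± 1.05 against nonpermissive cells (adjusted p = 0.0399), and its adjusted p was 0.0597 to 0.123 without nonpermissive replicate 2 or 3 or any 1 of the permissive replicates. Against control its adjusted p was 0.101, and 0.0339 with the replicate number as a block. At the same time Pcdha12, which rose at 24 h, had 1.65 to 2.02 CPM in permissive and no count in the other 48 h libraries. Pcdhac2, which fell at 24 h, had 3.1, 0 and 2.83 CPM in permissive libraries and no count in the others either. The part of the neuron and hair cell markers, which were also higher in permissive cells, was not tested.

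The beta and gamma clusters did not follow. The beta genes summed to 63.3 to 65.8 CPM in control, 70.1 to 75.9 in nonpermissive and 48.9 to 67.5 in permissive libraries. The gamma genes summed to 371 ± 53.7 (n = 2), 269 ± 162 and 129 ± 51.9 CPM (SD, n = 3 each), with nonpermissive replicate 2 at 116 CPM within the permissive range of 95.1 to 188. Pcdhgc4 alone accounted for 219 and 205 CPM in control, 194, 34.8 and 164 in nonpermissive and 115, 76.6 and 45.3 in permissive libraries (adjusted p = 0.148 for permissive against control). Pcdhga4 was called as lower in permissive than in nonpermissive cells, from 9.21, 4 and 0.32 CPM to no count in 3 libraries, at least 4.77-fold (adjusted p = 0.0416). Control libraries had no count of it either, so it passed the filter on low counts through the nonpermissive libraries alone (33, 7 and 1 counts) and could be tested in 10 of 14 alternative fits. With the replicate number as a block the adjusted p was 0.0508. Leaving out any 1 permissive library raised it to between 0.0658 and 0.0891.

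**Figure D3:**
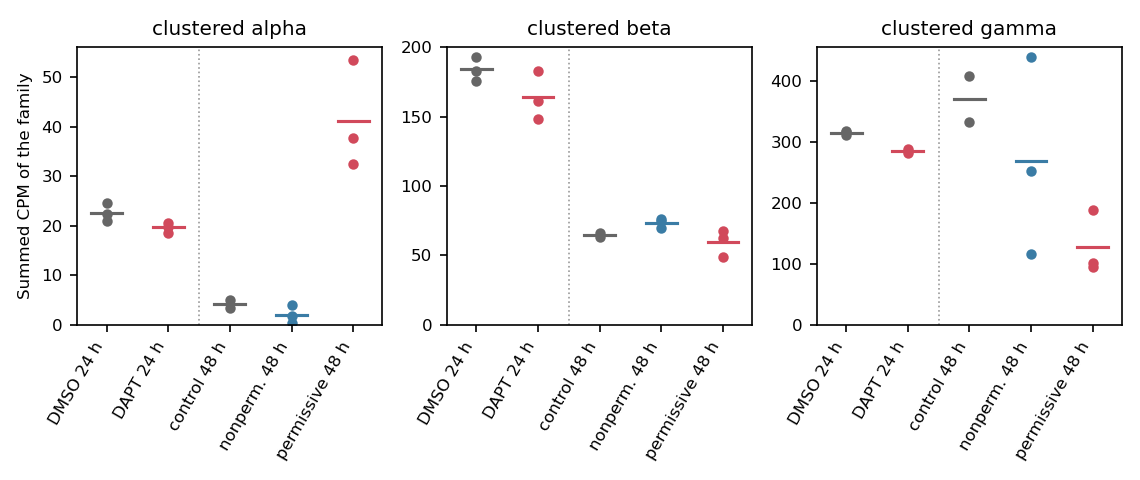
Summed CPM of the 14 alpha, 22 beta and 21 gamma protocadherin genes, 1 point per library and a bar at the mean, with a dotted line between 24 h and 48 h. The alpha sum is 32.5 to 53.4 CPM in permissive cells and at most 5.05 CPM in control and nonpermissive cells.

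Members called at 24 h were followed to 48 h, where permissive libraries were more variable. Pcdh18 had 10.7 and 15.7 CPM in control, 15.4, 4.57 and 7.68 in nonpermissive and 5.16, 0.669 and 7.68 in permissive libraries (log2 −1.54 ± 0.88 against control, adjusted p = 0.305), so the rise seen at 24 h had no counterpart among the calls. Pcdh19 was at 23.9 and 15.1, at 11.4, 7.42 and 10.6, and at 0.413, 0 and 11.3 CPM. Permissive replicate 3 decided this value: the adjusted p against control was 0.223 with it, 0.00302 without it, and 0.0307 with the replicate number as a block. Pcdh7 was at 138 and 72.8 CPM in control and at 54.5, 25.8 and 23.9 in permissive libraries (log2 −1.59 ± 0.51, adjusted p = 0.0546). Pcdh1 was at 48.8 and 36.8 CPM in control and 13.4, 12.7 and 19 in permissive libraries (log2 −1.51 ± 0.56, adjusted p = 0.0967). For Pcdh7 and Pcdh1 the groups did not overlap, as at 24 h, and neither passed the edgeR test. Pcdh7 passed with DESeq2 (adjusted p = 0.0293), with other filters on low counts (0.0343 and 0.0446), without control replicate 2 (0.049) and without permissive replicate 1 (0.0217).

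**Figure D4:**
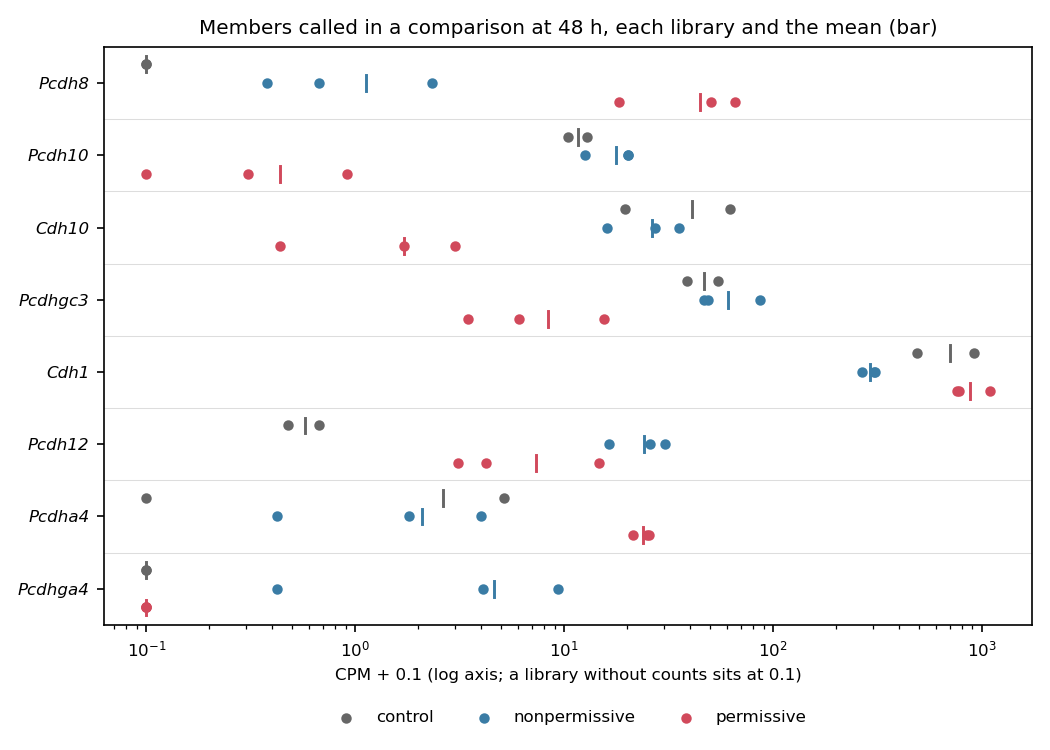
CPM plus 0.1 on a log axis of the 8 members called in a comparison at 48 h, 1 point per library and a bar at the group mean. Permissive libraries of Pcdh8 lie at 18.2 to 65.8 CPM above all others, and those of Pcdh10, Cdh10 and Pcdhgc3 lie below all control and nonpermissive libraries.

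Pcdh8, Cdh10 and Pcdhgc3 were called with the same sign with DAPT at 24 h and in permissive against control cells at 48 h. The difference between both effects was tested over 16620 genes, of which 1030 passed. For Pcdh8 the effects differed with adjusted p = 0.00158, and the size is a lower bound because control libraries had no count. With 3 counts per control library and the mean of the permissive libraries, the effect at 48 h exceeded that at 24 h by at least 4.8 (log2). The spread between libraries is not part of this bound. The Pcdhgc3 effects differed by −2.2 ± 0.59 (adjusted p = 0.0473), and leaving out any 1 library of 24 h or control replicate 2 gave 0.094 to 0.125. For Cdh10 the difference was −2.93 ± 0.86 (adjusted p = 0.0687). Time, kit and sort differ together between both effects.

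Chromatin near the members was read from the authors' peak lists, made for each sample separately. Fold enrichment and q-values are those of the authors. Peaks of an assay were merged over its 6 lists into regions, and a region was given to the protein-coding gene with the nearest start site within 100 kb. Start sites were at hand for 20 of the 88 symbols and for 9 of the 21 members called in any comparison. A region is called gained where both permissive lists and neither control list hold it, and lost in the opposite case. No test was run on the 2 lists per group, and the counts are a description. The shares over all regions set no limit on the distance from a start site, so they are not matched to the members in distance. Of 371 ATAC regions of members 13 were gained (3.5%, against 3.2% of 361954 regions) and 3 lost (0.809%, against 2.44%). Of 312 H3K27ac regions 12 were gained (3.85%, against 3.93% of 232408) and 5 lost (1.6%, against 1.73%). With all peaks, these shares were near the background for gains and lower than it for lost ATAC regions. In nonpermissive cells, 4 ATAC regions of members were gained (1.08%, against 1.14%) and 3 lost (0.809%, against 1.37%), and 4 H3K27ac regions were gained (1.28%, against 1.75%) and 0 lost (against 0.396%). Regions in all 6 lists numbered 31 for ATAC (8.36%, against 6.85%) and 5 for H3K27ac (1.6%, against 3.58%). With peaks of −log10 q of at least 5 alone, 8 of 118 ATAC regions of members were gained (6.78%, against 3.74% of all such regions), a higher share than the background, and 0 of 79 H3K27ac regions (against 1.48%). Permissive replicate 1 had the fewest ATAC peaks (86995) and permissive replicate 2 the most (170918).

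The start of Pcdh8 was open in all groups. An ATAC region at chr14:79770949-79771519, over the start site at position 79771312 and part of the sequence printed above, was in all 6 lists, with fold enrichments of 11.01 and 7.23 in control, 5.57 and 11.14 in nonpermissive and 7.06 and 10.75 in permissive samples. Accessibility at the start therefore did not separate the groups, while the transcript had no counts in control cells. An H3K27ac peak at the start was listed in control replicate 1 (fold enrichment 3.04) and permissive replicate 1 (5.95).

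Upstream of Pcdh8, 1 region gained both an ATAC and an H3K27ac peak in permissive cells, the latter weak in permissive replicate 2. The ATAC region chr14:79787853-79788434 lies 16831 bases upstream of the start site, between genes, and the next protein-coding gene on that side, Olfm4, begins 229 kb from the start site. Its fold enrichment was 8.58 and 22.47 in the permissive lists (deposited −log10 q of 29.9 and 130.9), and it was in none of the other 4 lists. The H3K27ac region chr14:79787588-79788611 covers it, with fold enrichments of 12.9 and 3.19 (−log10 q of 31.8 and 1) in the permissive lists and no peak in the other 4. Of the 13 gained ATAC regions of members this was the 1 that also gained H3K27ac, whereas 1949 of all 11596 gained regions (16.8%), at any distance from a start site, did. A further 3 gained ATAC regions of Pcdh8 lay 47924 bases downstream and 73191 and 81438 bases upstream, with fold enrichments of 2.33 to 6.28, and the one 73191 bases upstream was also in the list of nonpermissive replicate 2. A second H3K27ac region, 22540 bases upstream, was in both permissive lists (4.63 and 3.19). The value of 3.19 is also the median fold enrichment of the H3K27ac list of permissive replicate 2. With −log10 q of at least 5, 0 H3K27ac regions of members were gained. In all, Pcdh8 had 36 ATAC regions with 4 gained and 16 H3K27ac regions with 2 gained.

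About 66 kb upstream the pattern was the opposite. The ATAC region chr14:79837050-79837668 was in all 6 lists, with fold enrichments of 9.83 and 7.12 in control, 6.29 and 13.87 in nonpermissive and 2.37 and 2.51 in permissive samples. The overlapping H3K27ac region chr14:79836590-79837957 had 3.8 and 3.6 in control and 13.3 and 3.26 in nonpermissive lists and was in neither permissive list.

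**Figure D5:**
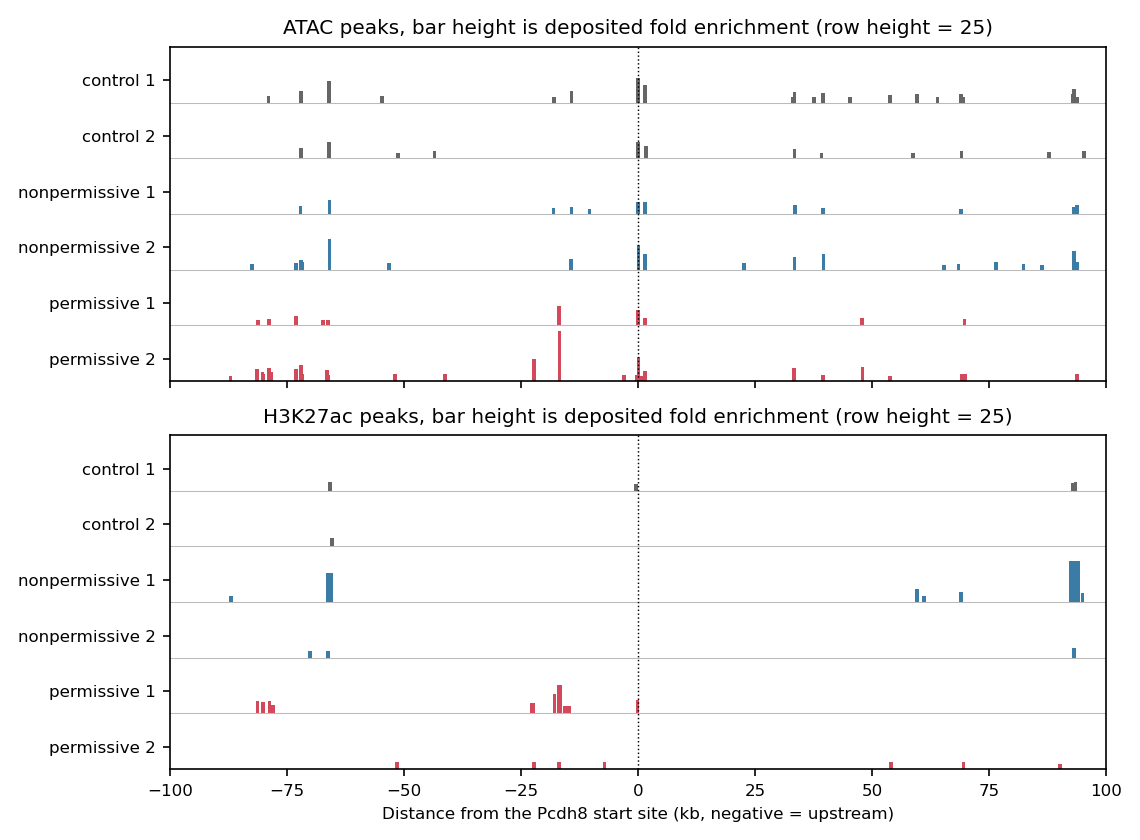
ATAC (top) and H3K27ac (bottom) peaks within 100 kb of the Pcdh8 start site (dotted line), 1 row per sample, placed by distance in kb with upstream to the left; bar height is the authors' fold enrichment and narrow peaks are drawn at least 0.8 kb wide. The start site carries an ATAC peak in all 6 rows, and the peak about 16.8 kb upstream is in both permissive rows of each assay and in no other row.

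Of the 9 called members with a start site, 8 had an ATAC peak within 1 kb of it in all 6 lists. The exception was Cdh10, whose start site used, chr15:18820329, lies inside the RefSeq gene span, which begins at 18818869. For Pcdh7 the peaks within 1 kb belonged to 2 regions. The one on the start site used, chr5:57717900-57718203, was in both control lists (fold enrichment 3.04 and 2.82) and nonpermissive replicate 1 (1.97). It was lost in permissive cells, while the region 945 bases upstream was in 5 lists, both permissive ones among them (2.42 and 2.94). The RefSeq span of Pcdh7 begins further upstream, at 57716145. Pcdh10 had fold enrichments of 6.37 to 8.71 within 1 kb of its start site, 7.37 and 8.71 of them in permissive cells. It had no H3K27ac peak at its start in any list. Its transcript nevertheless differed 40.4-fold between control and permissive cells. An H3K27ac region 47532 bases upstream of Pcdh10 was in both control lists and nonpermissive replicate 1 and in no permissive list. Cdh10 had ATAC regions 1675 bases upstream (fold enrichment 13.67 and 6.63 in control, 5.41 and 6.44 in permissive samples) and 1253 bases downstream (6.52 and 6.2 in control, 5.58 and 14.36 in permissive samples) in all 6 lists, and the downstream one was highest in permissive replicate 2. The upstream one, chr15:18818309-18818999, covers the beginning of the RefSeq span of Cdh10. The H3K27ac region over the upstream one was in both control lists (2.66 and 3.6) and nonpermissive replicate 1 (5.62). It was in neither permissive list, the same direction as the Cdh10 transcript. Pcdh18 carried H3K27ac at its start in 5 of 6 lists, all but permissive replicate 2. For Pcdh12, which has no entry in the start site table, ATAC regions were counted over the gene with 10 kb on both sides. The control lists held 2 and 2, the nonpermissive lists 6 and 8, and the permissive lists 3 and 3. H3K27ac regions numbered 0 and 0, 3 and 0, and 0 and 1 in the same order. Pcdh12 is the only member shown this way, and no share over all genes stands beside these counts.

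Other junction genes were counted from lists of partners, to be read beside the 11.5% of all genes that rose and 14.2% that fell at 24 h, and the 5.72% and 7.28% in permissive against control cells. Of 8 desmosome genes 6 fell and 0 rose with DAPT at 24 h. Dsc2, a desmosomal cadherin, fell from 60.9 ± 12.6 to 7.64 ± 1.36 CPM and the plaque protein gene Pkp1 from 25.3 ± 0.883 to 6.82 ± 3.51 CPM (adjusted p = 1.49e-05 and 0.00172), and Dsg2, Dsg3, Dsc3 and Pkp3 fell as well. At 48 h, 3 of 6 tested fell in permissive cells against control and against nonpermissive cells, Dsc2, Pkp1 and Dsg2 each time. Dsc2 had no count in permissive libraries against 25.2 ± 2.3 CPM in control. Of the large cadherins of planar polarity 1 rose and 4 of 7 fell at 24 h. Celsr3 rose from 7.15 ± 1.96 to 26 ± 0.531 CPM at 24 h and stood at 65.8 ± 49.7 in permissive against 1.27 ± 0.585 in control cells (adjusted p = 0.00141), while Fat4 fell in both and Fat1 at 48 h. Fat3, Celsr1 and Celsr2 were the other falls at 24 h.

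Of 12 catenins and junction adaptors 2 rose at 24 h (Ctnnal1 and Afdn, by 0.99 and 0.57 on the log2 scale) and 3 fell (Ctnnd1, Arvcf and Plekha7, by 0.52, 0.49 and 0.5), beside 25.7% of all genes called. Against control edgeR called 0 of 12 in permissive cells, with 4 at an unadjusted p under 0.05, and against nonpermissive cells Afdn rose and Pkp4 and Ctnna1 fell. Among the 4 nectins, adhesion partners of cadherins, Nectin1 rose with DAPT from 6.87 ± 2.22 to 21.5 ± 1.86 CPM and Nectin4 fell from 30.6 ± 3.62 to 11.7 ± 1.64 CPM. Both were also called in these directions in permissive cells against control and against nonpermissive cells. Nectin2 and Nectin3 rose at 24 h by 0.43 and 0.47 on the log2 scale. The photoreceptor cadherin gene Cdhr1 rose from 0.236 ± 0.339 to 8.44 ± 0.895 CPM at 24 h and was at 103 ± 27.7 CPM in permissive cells, with no count in control libraries. Clstn1, a calsyntenin, fell in both of these comparisons, and Clstn3 rose at 48 h. Of 7 genes for cadherin proteolysis, Aph1b rose and Psen2 fell at 24 h, both gamma-secretase subunits. At 48 h 0 were called, with 1 at an unadjusted p under 0.05 in permissive against control cells. Among repressors of Cdh1 transcription, 1 of 4 tested rose at 24 h: Snai2 went from 0.645 ± 0.092 to 4.79 ± 1.23 CPM (adjusted p = 0.000415). At 48 h 0 of 5 were called by edgeR, with 0 at an unadjusted p under 0.05 in each comparison. Between nonpermissive and control cells edgeR called 0 of the 45 genes tested in these lists, and 4 had an unadjusted p under 0.05.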

How the data were processed

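RNA values are expected counts and TPM that the authors deposited per sample, beside FPKM, which the authors deposited too and which was not used. The submitters' processing notes name the tools STAR, RSEM, DESeq2, Bowtie2, MACS2 and UMI-tools and build mm10, with no versions or order. Peak lists hold the fold enrichment (a ratio) and the −log10 p and −log10 q that the authors deposited. Members, lists and tests were chosen with earlier results of these data known. Of 48709 identifiers 99.3% had a symbol. Expected counts were rounded, filtered with filterByExpr, scaled by TMM and tested with edgeR 4.0.16 (quasi-likelihood, two-sided; R 4.3.3), 24 h and 48 h apart, the 48 h groups in 1 fit. Adjusted p is Benjamini-Hochberg over all genes tested, and "called" means under 0.05. SE is the log2 fold change over the root of its F. CPM uses TMM-scaled totals. A lower bound takes 3 counts per library for a group without counts and the mean of the other group, without its spread. Intervals cover counting error alone. Each call in a comparison is named; per-library values are given for up to 6 members with the smallest adjusted p there and for Cdh1, Cdh2, Cdh11 and Pcdh8. Further members with per-library values (Cdh3, Cdh5, Cdh13, Pcdhgc4 and, at 48 h, members called at 24 h) were chosen after their values were seen. The labels give replicate numbers and do not say that they pair samples. Deviations from the group means of same-numbered permissive and nonpermissive libraries had r of 0.53, 0.14 and 0.13 over 9544 genes. Unlike-numbered ones had r of −0.32 to 0.15, so a shared deviation rests on replicate 1. Same-numbered libraries of these groups were read as possible pairs, those of 24 h were not. The main fits used no block. Alternatives were RLE scaling, DESeq2 1.42.0, other filters, a replicate block, 2-group fits, left-out libraries, stricter peaks, overlap and distance. The scripts were tested on simulated data with known changes. Of true 2-, 4- and 8-fold changes, the 24 h fit recovered 97%, 100% and 100%. The fit of permissive against control at 48 h recovered 0%, 11.9% and 65.2%. A member not called at 48 h may therefore still have changed. Depth behind the peak lists is unknown.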

Additional observations from a re-analysis of the deposited data

Results flagged for a closer look

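The effect on Pcdh8 differed between times (edgeR adjusted p = 0.00158), and both changes were positive. The change in permissive against control cells at 48 h minus that with DAPT at 24 h was at least 4.8 (log2). That bound takes 3 counts per control library and the mean of the permissive libraries, without the spread between libraries. Pcdhgc3 also differed, by −2.2 (SE 0.59, adjusted p = 0.0473), negative in both. The library kit and the sort changed together with the time, so they cannot be told apart here.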

How the results depend on the processing

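At 24 h, RLE scaling and DESeq2 each left 17 called members. Without single libraries the calls at 24 h were 12 to 25 (6 to 11 rose, 6 to 14 fell). For permissive against control DESeq2 called 10 (5 rose, 5 fell), no filter on low counts 13 (6 rose, 7 fell), a fit of the 2 groups alone had 1 rise, and left-out libraries gave 5 to 7 (1 to 2 rose, 3 to 5 fell). For nonpermissive against control, with 0 in the main analysis, DESeq2 and no filter each called 3 (all rose), the replicate block 1 and the 2 groups alone 1 (a rise each), and left-out libraries 0 to 1. For permissive against nonpermissive 5 rose with DESeq2 and with no filter, and left-out libraries gave 5 to 8 calls (1 to 4 rose, 3 to 6 fell). With the replicate block, 16, 7, 1 and 8 members were called in these 4 comparisons; at 24 h, where the numbers share no deviation (r of −0.02, −0.07 and −0.06), Pcdhgc3 lost its call (adjusted p = 0.0608). At 48 h the block added Pcdh19 and Pcdha4 against control, Pcdh12 between nonpermissive and control, and Cdh3 and Cdh5 (adjusted p = 0.0447) between permissive and nonpermissive, removed Pcdhga4, and changed no other call of a member. The difference between times kept its call for Pcdh8 in all 14 alternative fits (adjusted p up to 0.012), ranged from −2.94 to −1.85 for Pcdhgc3 and −3.89 to −1.80 for Cdh10 without single libraries, and was −2.99 for Cdh10 with no filter (adjusted p = 0.0234); these fits were added after the data were seen. Gained ATAC regions of members numbered 8 with −log10 q of at least 5 and 5 within 25 kb; gained H3K27ac regions numbered 0 with −log10 q of at least 5, 5 under a stricter reciprocal overlap of peaks, and 6 within 25 kb. The cause of these shifts was not tested. Depth limits the 48 h results: members with few counts there, such as most alpha genes, could not be tested.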
